A study of Mus musculus with 10 samples.

Results

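The transcription factor gene Atf4, 6 genes for enzymes of serine, mitochondrial one-carbon and asparagine synthesis (Phgdh, Psat1, Psph, Shmt2, Mthfd2 and Asns) and the stress-response genes Ddit3 and Trib3 were followed across all comparisons of the series. Members were matched by gene symbol in the platform annotation, and the set was chosen with earlier results of these data known. All 9 were on the array, each with 1 probe, among 15097 genes with a symbol. RNA came from mouse FDB1 cells, a myeloid progenitor line that depends on IL-3 for growth. FI-Delta cells express a constitutively active form of the beta subunit that the receptors for GM-CSF, IL-3 and IL-5 share. FI-Delta Y577F cells (Y577F below) express that form with phenylalanine in place of a tyrosine of its cytoplasmic part. Cells of both lines grew in medium with fetal calf serum and 500 U/mL of mouse IL-3 (0 h). Others were washed and kept without factor for 72 h, which gave 4 RNA groups. The labels were read as 2 cultures of each line, with some label numbers exchanged between the lines. Whether a line was 1 clone is not given in the sources used here.

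ATF4 is the main effector of the integrated stress response. When eIF2 alpha is phosphorylated, for example by the kinase GCN2 during amino acid shortage or by PERK during endoplasmic reticulum stress, most translation slows while that of Atf4 mRNA rises, so the RNA level alone does not report the protein. ATF4 pairs with C/EBP proteins on composite DNA elements and switches on amino acid synthesis, uptake and tRNA charging. Serine is made from a glycolytic intermediate by PHGDH, PSAT1 and PSPH in turn, and SHMT2 and MTHFD2 pass its carbon to folate in mitochondria, which feeds purine synthesis in growing cells. ASNS makes asparagine from aspartate. Ddit3 encodes CHOP, a C/EBP-family factor induced under prolonged stress, and Trib3 encodes a pseudokinase that restrains ATF4.

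The series holds 10 two-colour oligonucleotide arrays. The lines were set against each other directly on 3 arrays at 0 h and 2 arrays at 72 h. The times were set against each other on 3 arrays in FI-Delta cells and 2 arrays in Y577F cells. FI-Delta time arrays 1 and 2 repeat the same RNA with the dyes exchanged and counted as 1 hybridisation, so 9 entered the model. Values are log2 ratios, turned so that 72 h stands over 0 h and Y577F over FI-Delta. The deposited direction is likely Cy5 over Cy3, and the opposite would turn every sign below. Changes are log2 estimates ± standard error of a limma model over all arrays and all 20243 features, and a gene is called at an adjusted p under 0.05. Ratios give no absolute level, so levels of different genes were not compared and the presence of myeloid markers was not checked. Fewer cells with a transcript and less of it per cell cannot be told apart in such RNA. With few arrays the precision is limited (median standard errors of 0.0871 to 0.112).

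In Y577F cells, RNA of all 9 genes fell over 72 h without factor. Over all features, 18.0% were called in this comparison, 8.75% as lower and 9.28% as higher. The median change of the 9 genes was -1.06, against 0.0073 for all features. Because earlier results of these data were known when the set was chosen, this contrast is a description and not a test. Cells given IL-3 for the same 72 h were not on the arrays, so in both lines the absence of factor, the washing and the time in culture cannot be told apart.

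Atf4, the regulator, had ratios of -1.01 and -1.35 on the Y577F time arrays. Both lay far below 0, and the fall was 2.23-fold (-1.16 ± 0.086, adjusted p = 3.58e-06). Psat1, the aminotransferase of the serine pathway, had ratios of -2.60 and -2.15. It fell 5.37-fold (-2.43 ± 0.12, adjusted p = 2.58e-07), rank 3 from the lowest of 20243 features. The estimates for the steps on either side of it were smaller. Phgdh, the first enzyme, had ratios of -0.49 and -0.30 (-0.39 ± 0.12, adjusted p = 0.043), and Psph, the last, had -1.09 and -0.86 (-1.06 ± 0.11, adjusted p = 3.69e-05). Those falls were 1.31-fold and 2.08-fold.

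Shmt2, which splits serine into glycine and a one-carbon unit, had ratios of -1.67 and -1.46. It fell 3.00-fold (-1.58 ± 0.094, adjusted p = 7.62e-07), rank 14 from the lowest. Mthfd2, the next mitochondrial folate enzyme, had ratios of -0.93 and -0.56 and fell 1.62-fold (-0.70 ± 0.084, adjusted p = 1.39e-04). Asns was at -0.89 and -1.36, a 2.29-fold fall (-1.20 ± 0.099, adjusted p = 7.55e-06). Array 2 was the lower for Asns and Atf4, and array 1 for the other 7 genes. Trib3 was at -0.90 and -0.76, a 1.76-fold fall (-0.81 ± 0.088, adjusted p = 6.14e-05). Ddit3 was at -0.33 and -0.17. Its model estimate over all arrays lay below both ratios, a 1.32-fold fall (-0.40 ± 0.11, adjusted p = 0.024). The Y577F time arrays alone gave -0.25 for it (limma adjusted p = 0.330). Over 20 alternative settings the adjusted p of Phgdh reached 0.196 and that of Ddit3 0.330, and they were called in 8 and 15 of the settings. With the dye term dropped and a coefficient per RNA extract (extract replicate block) neither was called, at adjusted p of 0.0967 and 0.170. The other 7 genes were called in all 20.

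**Figure D1:**
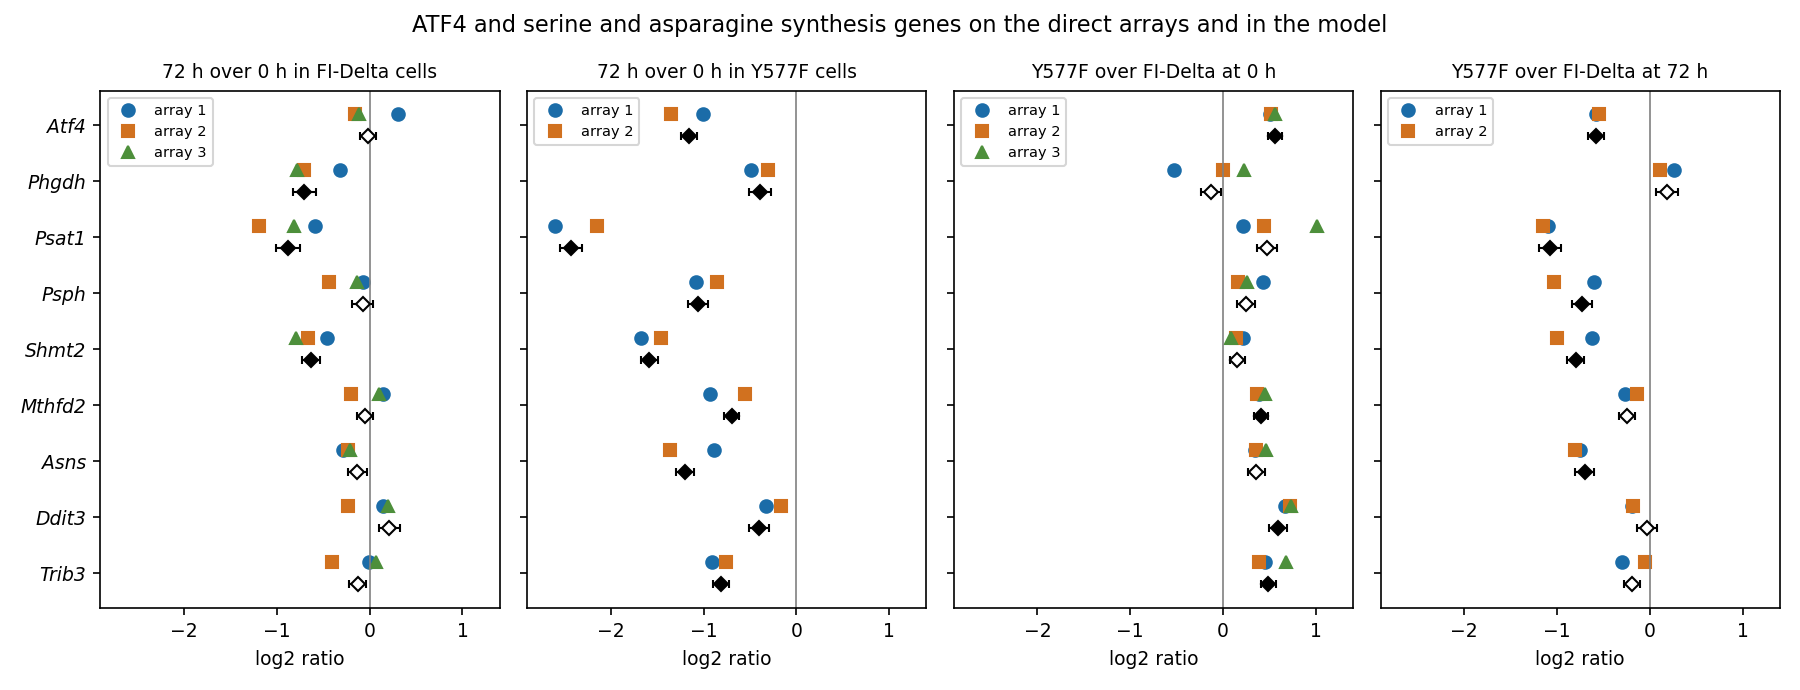
Log2 ratio (x axis) of each of the 9 genes (rows) on the direct arrays of the 4 comparisons (panels), with coloured symbols for arrays and black diamonds for the model estimate over all arrays with its standard error (filled, called at adjusted p under 0.05). In Y577F cells all 18 points over time lie below 0, while in FI-Delta cells Psat1, Phgdh and Shmt2 are the only filled diamonds.

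In FI-Delta cells, which carry the unmutated tyrosine, 3 of the 9 genes fell: Psat1, Phgdh and Shmt2. Over all features, 8.16% were called in this comparison, 2.97% as lower and 5.19% as higher. Atf4 was not among those called, and neither were Asns, Psph, Mthfd2, Trib3 and Ddit3. The median of the 9 genes was -0.13, against -0.0055 for all features.

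Psat1 had ratios of -0.59, -1.19 and -0.82 on FI-Delta time arrays 1, 2 and 3. It fell 1.84-fold (-0.88 ± 0.13, adjusted p = 0.00111). Phgdh had -0.32, -0.71 and -0.79 and fell 1.63-fold (-0.71 ± 0.12, adjusted p = 0.00439). Shmt2 had -0.46, -0.66 and -0.79 and fell 1.55-fold (-0.63 ± 0.097, adjusted p = 0.00184). For these 3 genes all 3 arrays lay below 0, and the calls held in all 20 alternative settings.

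Atf4 had ratios of 0.30, -0.16 and -0.12, on both sides of 0. Its change was -0.020 ± 0.089 (adjusted p = 0.943). Asns was slightly below 0 on all 3 arrays, at -0.29, -0.23 and -0.22 (-0.13 ± 0.10, adjusted p = 0.547). Psph also stayed below 0, at -0.073, -0.43 and -0.14 (-0.077 ± 0.11, adjusted p = 0.791). The rest of the set had arrays on both sides of 0. Mthfd2 was at 0.14, -0.21 and 0.098 (-0.053 ± 0.087, adjusted p = 0.822). Trib3 was at -0.0021, -0.40 and 0.070 (-0.13 ± 0.091, adjusted p = 0.501), and Ddit3 at 0.15, -0.24 and 0.20 (0.21 ± 0.11, adjusted p = 0.350). Array 2, one orientation of the dye swap, was lower than array 1 for 8 of the 9 genes. Asns was the exception. Over all features these 2 arrays of the same RNA had a Pearson r of only 0.236. Arrays 1 and 3, with the same dye orientation and different cultures, had 0.539, and arrays 2 and 3 had 0.351.

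Whether the 72 h change differed between the lines was tested in the same model, as the change in Y577F cells minus that in FI-Delta cells. For 8 of the 9 genes the change was lower in Y577F cells. Over all features, 9.24% were called in this test, 4.91% as lower and 4.33% as higher. Psat1 differed most (-1.54 ± 0.14, adjusted p = 6.3e-05), followed by Atf4 (-1.14 ± 0.098, adjusted p = 5.12e-05) and Asns (-1.06 ± 0.11, adjusted p = 1.93e-04). Psph (-0.98 ± 0.12, adjusted p = 5.4e-04) and Shmt2 (-0.95 ± 0.11, adjusted p = 2.73e-04) came next. Psat1 and Shmt2 thus fell in both lines and further in Y577F cells.

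The smaller differences were those of Trib3 (-0.68 ± 0.10, adjusted p = 0.00159), Mthfd2 (-0.65 ± 0.096, adjusted p = 0.00171) and Ddit3 (-0.61 ± 0.12, adjusted p = 0.0107). Phgdh, which commits carbon to the serine pathway, did not pass (0.32 ± 0.14, adjusted p = 0.191), and its estimate had the opposite sign. With the time arrays alone in place of all arrays, 2 of the 9 genes were called, Atf4 and Psat1. The adjusted p of the other 6 then lay between 0.0607 (Shmt2) and 0.465 (Ddit3), and the sign of each was unchanged. Ddit3 also lost its call without 0 h array 1 (adjusted p = 0.0611) and without 72 h array 2 (adjusted p = 0.0919). With the extract replicate block the difference was called for 440 of all features and 6 of the 9 genes. Mthfd2 (adjusted p = 0.0542) and Ddit3 (adjusted p = 0.130) were not among the 6.

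**Figure D2:**
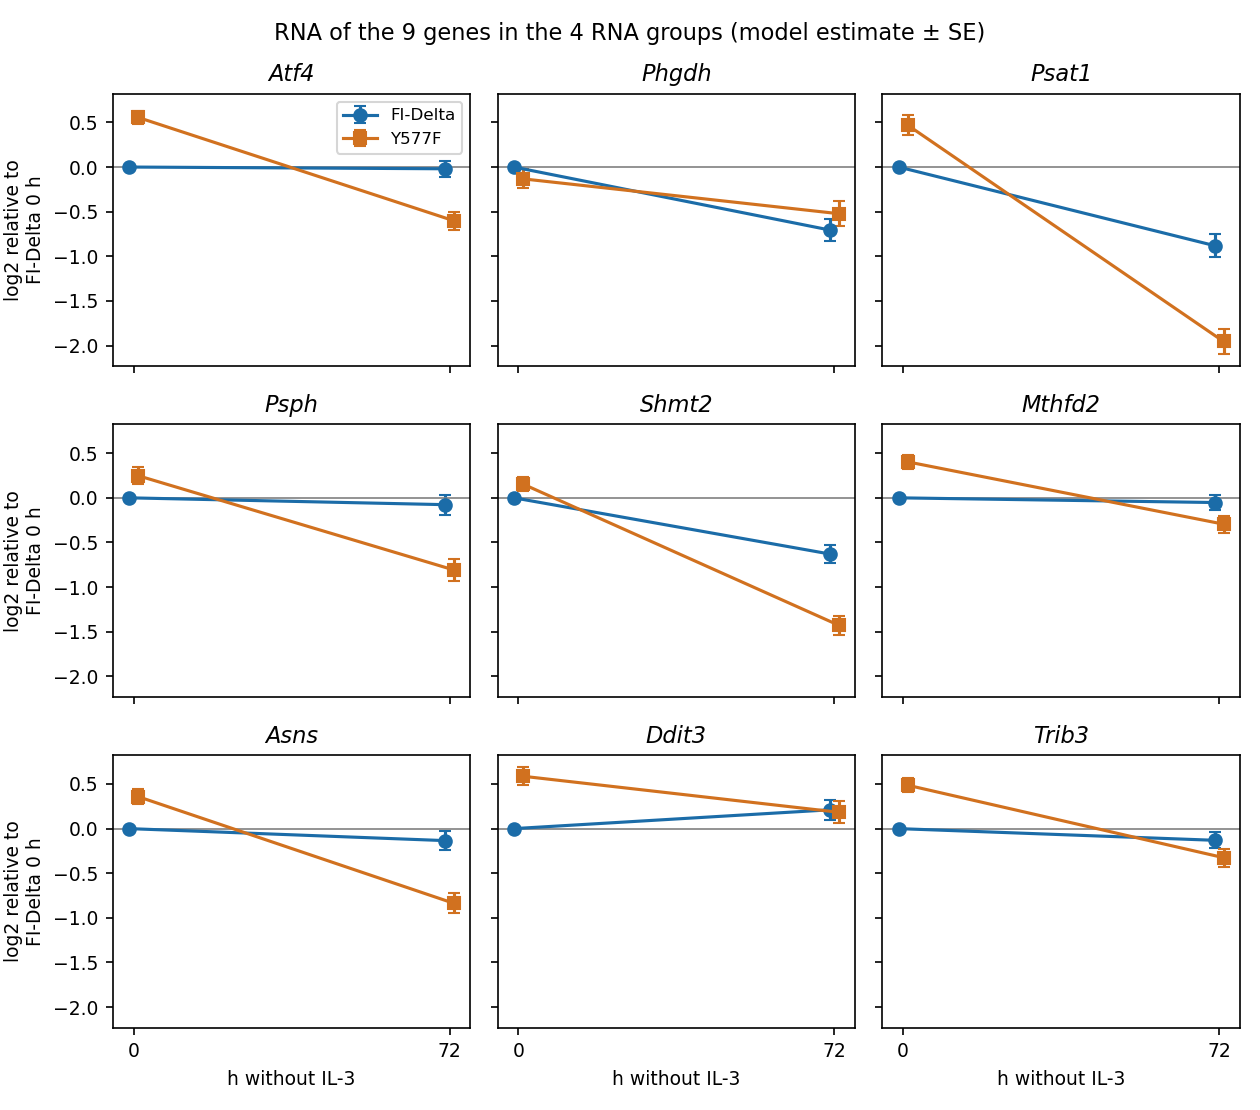
Model estimate of RNA relative to FI-Delta cells at 0 h (y axis, log2, ± standard error) at 0 h and 72 h without IL-3 (x axis) in FI-Delta (blue circles) and Y577F cells (orange squares). Except for Phgdh, the Y577F estimate lies above the FI-Delta estimate at 0 h and below it at 72 h, with Psat1 ending lowest at -1.95. The line difference was called at both times for Atf4 only, and for Ddit3 at 72 h it was -0.0275 ± 0.11.

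While growing in IL-3 (0 h), Y577F cells had more RNA than FI-Delta cells of Atf4, Ddit3, Trib3 and Mthfd2. Over all features 1.42% were called, 0.934% as higher and 0.484% as lower. The 0 h arrays showed little likeness to each other over all features: array 1, with FI-Delta RNA in Cy5, had Pearson r of 0.0871 with array 2 and -0.0374 with array 3, which carry the opposite dyes, and arrays 2 and 3 had r of 0.357. Arrays 2 and 3 also share a culture that array 1 lacks, so dye and culture cannot be told apart in that split. It was read here as a Y577F culture, with the label numbers of these 2 arrays exchanged between the lines. Taken as written, the labels give the shared number, 4, to FI-Delta. The 9 genes had medians of 0.39, 0.37 and 0.46 on arrays 1, 2 and 3.

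Atf4 had ratios of 0.50, 0.52 and 0.56 on 0 h arrays 1, 2 and 3. These are within 0.1 of each other, and the level in Y577F cells was 1.47-fold higher (0.56 ± 0.077, adjusted p = 0.004). Ddit3 was as even, at 0.67, 0.72 and 0.73, 1.50-fold higher (0.59 ± 0.098, adjusted p = 0.0118). Trib3 had 0.45, 0.38 and 0.68 and was 1.40-fold higher (0.49 ± 0.079, adjusted p = 0.00984). Mthfd2 was 1.32-fold higher (0.40 ± 0.075, adjusted p = 0.0238), with 0.39, 0.37 and 0.45. No array of these 4 genes lay below 0.

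Psat1 was above 0 on every array but spread more widely, at 0.21, 0.44 and 1.01 (0.47 ± 0.11, adjusted p = 0.0665). Asns had 0.34, 0.36 and 0.46 (0.36 ± 0.088, adjusted p = 0.0883). Psph had 0.43, 0.16 and 0.26 (0.25 ± 0.096, adjusted p = 0.311), and Shmt2 0.22, 0.14 and 0.081 (0.16 ± 0.084, adjusted p = 0.509). Positive on all 3 arrays, these 4 genes still did not pass the test. Phgdh did not share the sign, with -0.52, 0.0008 and 0.22 (-0.13 ± 0.11, adjusted p = 0.684). The count of 4 did not hold in every setting. With the extract replicate block limma called 0 of the 9 genes, 6 had an unadjusted p under 0.05, and the adjusted p was 0.259 for Atf4, 0.446 for Ddit3, 0.330 for Trib3 and 0.478 for Mthfd2. With further coefficients for the cultures of each line (culture replicate block) Ddit3 (adjusted p = 0.0960) and Mthfd2 (adjusted p = 0.0670) lost their calls and Psat1 gained one (adjusted p = 0.0427). Without array 1 only Atf4 was called, and without array 3 again only Atf4. With the 0 h arrays alone 1 gene was called, Ddit3, and the adjusted p of Atf4 was then 0.118, the range over all 20 settings being 0.00126 to 0.259.

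After 72 h Psat1, Shmt2, Psph, Asns and Atf4 were lower in Y577F cells than in FI-Delta cells. Of these 5 genes, Atf4 alone had been called at 0 h, as higher. Over all features 12.9% were called, 6.45% as lower and 6.44% as higher. Psat1 had ratios of -1.10 and -1.15 on the 72 h arrays, a 2.10-fold lower level (-1.07 ± 0.12, adjusted p = 1.16e-04). Shmt2 had -0.63 and -1.004, 1.74-fold lower (-0.80 ± 0.094, adjusted p = 1.55e-04). Psph had -0.60 and -1.03, 1.66-fold lower (-0.73 ± 0.11, adjusted p = 7.52e-04). The 2 arrays were close together for Psat1 and apart for Shmt2 and Psph, with array 2 the lower.

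Asns had ratios of -0.75 and -0.80, 1.63-fold lower (-0.70 ± 0.099, adjusted p = 5.79e-04). Atf4 had -0.58 and -0.55, 1.50-fold lower (-0.58 ± 0.086, adjusted p = 8e-04). These 5 calls held in all 20 alternative settings. Mthfd2, at -0.26 and -0.13, did not pass (-0.24 ± 0.084, adjusted p = 0.0874). Neither did Trib3, at -0.30 and -0.052 (-0.19 ± 0.088, adjusted p = 0.191), or Ddit3, at -0.19 and -0.18 (-0.0275 ± 0.11, adjusted p = 0.910). Phgdh was above 0 on both arrays, at 0.26 and 0.11 (0.18 ± 0.12, adjusted p = 0.383). With array weights Mthfd2, Trib3 and Phgdh also passed, the last as higher.

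**Figure D3:**
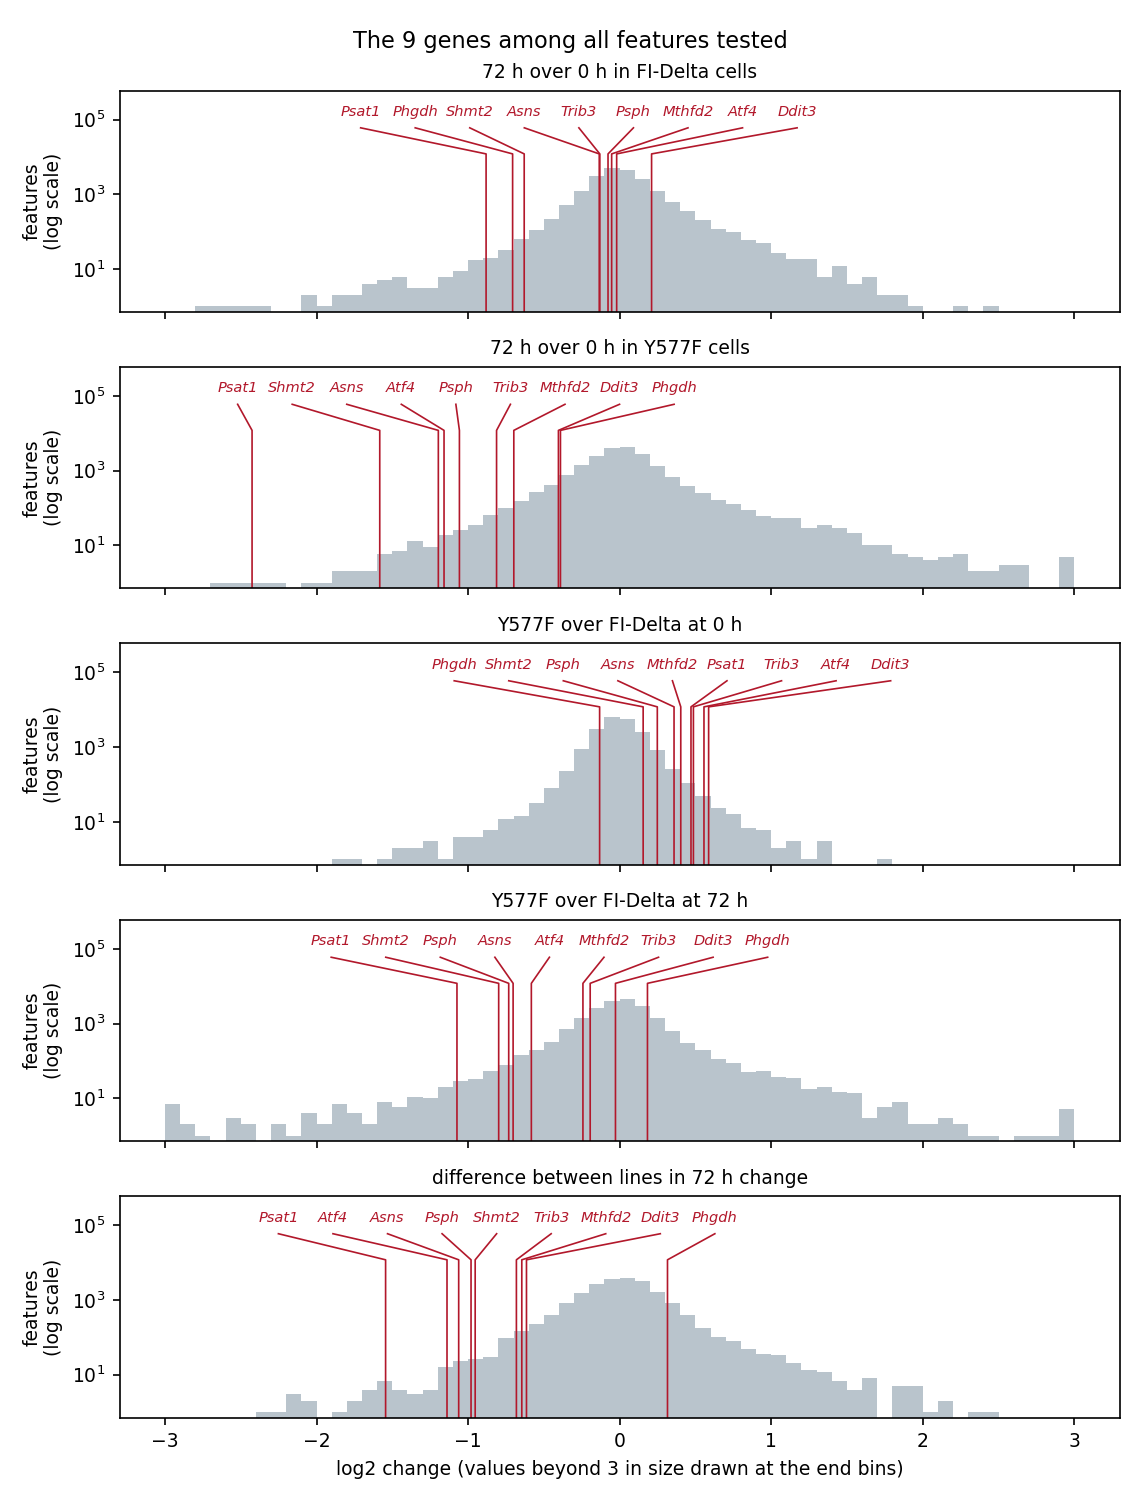
Number of features (y axis, log scale) in bins of the log2 change (x axis) for the 5 comparisons, with a red line at the value of each of the 9 genes. In Y577F cells over time Psat1 is at -2.43 in the lower tail, while at 0 h most of the genes lie to the right of the bulk, up to 0.59 for Ddit3.

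Across the 4 RNA groups, 7 genes had the same order of estimated levels: lowest in Y577F cells at 72 h, then FI-Delta at 72 h, FI-Delta at 0 h and Y577F at 0 h. Atf4 shows which neighbours differ in that order. Relative to FI-Delta cells at 0 h it stood at -0.60 in Y577F cells at 72 h, -0.020 in FI-Delta cells at 72 h and 0.56 in Y577F cells at 0 h, and the middle pair did not differ beyond the error. For Psat1 and Shmt2 the middle pair did differ, and the upper pair did not pass. Psat1 was at -1.95, -0.88 and 0.47 and Shmt2 at -1.43, -0.63 and 0.16 in the same groups. Psph and Asns differed between the lowest pair alone. Mthfd2 and Trib3 differed between the upper pair alone. Phgdh ran in another order, lowest in FI-Delta cells at 72 h (-0.71) and highest in FI-Delta cells at 0 h. Ddit3 was lowest in FI-Delta cells at 0 h, with Y577F cells at 72 h (0.18) and FI-Delta cells at 72 h (0.21) next to each other and Y577F cells at 0 h highest (0.59).

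Because the arrays form a closed loop of 4 groups, Y577F cells at 72 h can be set against FI-Delta cells at 0 h by either of 2 routes over the direct arrays. For Atf4 the routes gave -0.59 and -0.65, for Phgdh -0.46 and -0.49, and for Shmt2 -1.49 and -1.42. These gaps are smaller than the median gap over all features, 0.149 in size. Psat1 gave -1.98 and -1.82, and Trib3 and Mthfd2 had gaps of 0.087 and 0.17. The gaps of Asns (-0.28) and Psph (-0.32) were larger but under the 90th percentile of all features, 0.394. Ddit3 exceeded it, with -0.11 by way of FI-Delta cells at 72 h and 0.46 by way of Y577F cells at 0 h, so its sign between these groups depended on the route. In each comparison with direct arrays, the model estimate of Ddit3 lay outside the range of its direct ratios. The direct arrays alone gave 0.076 over time in FI-Delta cells, -0.25 over time in Y577F cells, 0.71 at 0 h and -0.18 at 72 h.

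**Figure D4:**
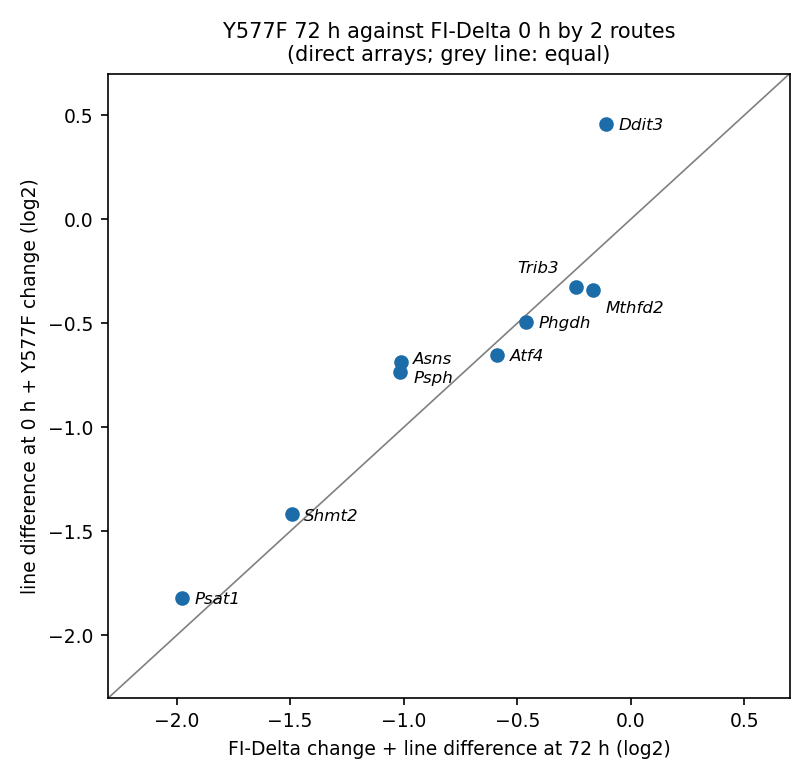
Log2 ratio of Y577F cells at 72 h to FI-Delta cells at 0 h for each of the 9 genes, by way of FI-Delta cells at 72 h (x axis) and by way of Y577F cells at 0 h (y axis), from the direct arrays; the grey line marks equal values. Ddit3, at -0.11 and 0.46, lies farthest from the line.

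All 9 genes fell together in Y577F cells, and parts of the RefSeq promoters (GRCm38.p6) of Asns, Trib3 and Psat1 are shown because they hold letters like those of the composite element that ATF4 and C/EBP factors bind. The windows run from 250 bases before to 50 after the start of a gene, and windows were found for all 9 genes, with 2 for Psat1. The motif TGATGNAA was searched on both strands and is in 3.97% of all 32851 windows. The related TGGTGCAA, which was picked out after these promoters had been read, is in 0.536%. The motifs differ in the third letter. Each stretch below is upstream of the start, on the strand of the gene, with the match in capitals.
Asns, chr6:7693210-7693272, minus strand: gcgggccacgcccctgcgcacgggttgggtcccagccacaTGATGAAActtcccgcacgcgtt
Trib3, chr2:152344061-152344133, minus strand: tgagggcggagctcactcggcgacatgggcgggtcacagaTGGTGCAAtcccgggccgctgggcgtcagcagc
Psat1, chr19:15925148-15925235, minus strand: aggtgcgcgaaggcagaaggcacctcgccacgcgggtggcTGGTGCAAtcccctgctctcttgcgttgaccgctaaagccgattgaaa
The match in Asns begins 23 bases before the start, that in Trib3 33 bases before and that in Psat1 136 bases before, in 1 of its 2 windows. Trib3 also has the first motif on the other strand, as TTACATCA from base 15 of the transcribed part. Neither motif was found in the windows of Atf4, Phgdh, Psph, Shmt2, Mthfd2 and Ddit3, which says only that these letters are not there. A match is a description of the sequence, and binding was not measured.

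Likeness between genes was described by the uncentred cosine of their log ratios over the 10 arrays, which share RNA extracts. Asns was nearest to Atf4 within the set (0.940), then Mthfd2 (0.922), Trib3 (0.907), Psph (0.891), Psat1 (0.883) and Shmt2 (0.832). Ddit3 (0.684) and Phgdh (0.223) were farther away. Among all genes with a symbol, Atf4 itself counted, Asns ranked 9, Mthfd2 25, Trib3 40, Psph 65, Psat1 75 and Shmt2 182. Ddit3 ranked 917 and Phgdh 4736, so many genes outside the set were closer to Atf4 than most of its members. The closest pairs were Mthfd2 with Trib3 (0.973) and Psat1 with Shmt2 (0.965), and the least alike were Phgdh and Ddit3 (-0.0435). Outside the set, Yars, the tyrosyl-tRNA synthetase gene, was the gene most like Atf4 (0.959), followed by Lsm11 (0.953), 1700026F02Rik (0.946), Unc13d (0.944) and Mapk12 (0.943).

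The genes most like the mean of the 6 enzymes were Aen (0.987), Snhg5 (0.983), Eef1e1 (0.978), Ahcy (0.977), Eprs, Hspd1 and Utp4 (0.972 each), Nolc1 (0.971), Yars (0.970) and Mcm3 (0.970). Ahcy encodes the hydrolase of S-adenosylhomocysteine, Eprs another tRNA synthetase, Nolc1 a nucleolar protein and Mcm3 a replication helicase subunit. Ahcy had changes of -1.35 ± 0.088 over time in Y577F cells and -0.70 ± 0.092 in FI-Delta cells, and 0.24 ± 0.079 between the lines at 0 h. Psat1 itself, which enters that mean, had a cosine of 0.997 to it. Phgdh, which also enters the mean, had 0.538 (rank 2306 among all genes with a symbol), and Atf4 had 0.894 (rank 209).

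Neighbouring pathway genes were read from lists that hold none of the 9, beside the background percentages given above. The lists overlap, and shared genes are counted in each. Nars and Gars are among the tRNA synthetase genes and the other ATF4 targets. Slc7a11 is among the transporters and those targets, and Xbp1 among the bZIP and the chaperone genes. The 0 h calls of these lists were lost with the extract replicate block. Of 12 aminoacyl-tRNA synthetase genes, whose products charge tRNA with amino acids, 7 fell and 1 rose over time in Y577F cells, with a median of -0.57. Yars fell by 1.36 ± 0.0975, Lars by 1.19 ± 0.090 and Tars by 0.98 ± 0.088. In FI-Delta cells 2 fell, Tars (-0.41 ± 0.091) and Iars (-0.365 ± 0.0985). At 0 h 3 were higher in Y577F cells, Yars (0.51 ± 0.087), Nars (0.43 ± 0.0885) and Lars (0.42 ± 0.081), and at 72 h 4 were lower. The change over time was lower in Y577F than in FI-Delta cells for 6, Yars, Lars and Nars among them. The 3 calls at 0 h were lost without 0 h array 1 or 3, and 1 was left without 0 h array 2, 72 h array 1 or FI-Delta time array 1. The calls in FI-Delta cells were lost without FI-Delta time array 3 or Y577F time array 1 and were 4 without FI-Delta time array 1, and 1 without 0 h array 1, 72 h array 1 or FI-Delta time array 2. The 72 h calls were 2 when Y577F time array 1, one of the 72 h arrays or one of FI-Delta time arrays 1 and 3 was left out. The 1 rise in Y577F cells held when FI-Delta time arrays 1 and 3 or 0 h array 1 were left out singly and was lost without each of the others.

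Of 15 amino acid transporter genes, 7 fell and 2 rose in Y577F cells, and 4 fell and 3 rose in FI-Delta cells. The neutral amino acid carriers Slc1a4 (-1.21 ± 0.13) and Slc1a5 (-1.04 ± 0.084) and the large neutral amino acid carrier Slc7a5 (-0.98 ± 0.076) fell most in Y577F cells. In FI-Delta cells Slc7a11, the cystine carrier, rose (1.00 ± 0.15) and Slc7a8 fell (-0.67 ± 0.093). At 0 h 4 were higher in Y577F cells, with Slc7a8 (0.65 ± 0.080), Slc3a2 (0.60 ± 0.076) and Slc1a4 (0.59 ± 0.11) foremost. At 72 h 2 of the 15 transporters were called between the lines, both higher in Y577F cells, a share near the 12.9% of all features. The list median was -0.051. Of these 2 calls, 1 was left without any array other than FI-Delta time array 1 or Y577F time array 2. Without 0 h array 1 a single transporter was called at 0 h, and 2 were without 0 h array 3, 72 h array 1 or FI-Delta time array 2. In FI-Delta cells 1 rise was left without 0 h array 1, 72 h array 1, Y577F time array 1 or FI-Delta time array 3, and in Y577F cells 1 was left without any 1 of the arrays at 72 h or over time in Y577F cells.

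Of 19 other serine, glycine and folate genes, 5 fell and 1 rose in Y577F cells, and 1 fell and 1 rose in FI-Delta cells. Gcat (-0.83 ± 0.077) and the cytosolic folate enzyme Mthfd1 (-0.81 ± 0.11) fell in Y577F cells, while Mthfs rose in both lines (0.91 ± 0.096 in Y577F, 0.72 ± 0.10 in FI-Delta). Mthfd1l fell in FI-Delta cells (-0.51 ± 0.10). Without Y577F time array 1, 3 of the 19 fell in Y577F cells. Without FI-Delta time array 1, 2 rose in each line and 2 fell in FI-Delta cells, and without 0 h array 3, 2 rose in Y577F cells. At 0 h limma called 0 of the 19, and 2 had an unadjusted p under 0.05, against 2453 of all 20243 features. Of 14 aspartate, glutamate and proline genes, 3 fell and 2 rose in Y577F cells, and 2 fell and 1 rose in FI-Delta cells. Ass1, which like ASNS uses aspartate, rose (1.26 ± 0.098), and the ornithine decarboxylase gene Odc1 (-0.86 ± 0.079) and the proline synthesis gene Aldh18a1 (-0.82 ± 0.10) fell in Y577F cells. In FI-Delta cells 1 of the 14 fell without 0 h array 1, either 72 h array, Y577F time array 1 or FI-Delta time array 3, and the 1 rise was lost without the last of these.

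Upstream of ATF4, of 13 genes for eIF2 alpha kinases, phosphatases, eIF2 and eIF2B, 4 fell and 1 rose in Y577F cells, and 1 fell and 1 rose in FI-Delta cells. Ppp1r15a (GADD34), the stress-induced phosphatase subunit that ends the response, was the gene of this list called at 0 h, higher in Y577F cells (0.66 ± 0.086, adjusted p = 0.00305). It fell over time in them (-0.58 ± 0.096). Eif2s2, the eIF2 beta subunit gene, fell as well (-0.83 ± 0.13). Of 25 other ATF4 targets of stress and growth control, 5 rose and 9 fell in Y577F cells and 4 rose and 1 fell in FI-Delta cells. Stc2, a secreted glycoprotein gene, fell in both (-1.56 ± 0.10 in Y577F, -1.23 ± 0.11 in FI-Delta). At 0 h 5 were higher in Y577F cells, with Sqstm1 (0.57 ± 0.085), Gadd45a (0.52 ± 0.11) and Stc2 (0.50 ± 0.092) the largest. These 5 calls were lost without 0 h array 1, 2 were left without array 3 and 3 without 72 h array 1. Without Y577F time array 1, 1 of the 25 targets rose in Y577F cells and 2 of the 13 eIF2 genes fell. The 1 eIF2 gene that rose in Y577F cells lost its call without 0 h array 1, 72 h array 2 or either Y577F time array, and the 1 that fell in FI-Delta cells without 0 h array 1, 72 h array 2, Y577F time array 1 or FI-Delta time array 3. Without Y577F time array 2, 2 of the eIF2 genes were called at 0 h and 2 of the targets fell in FI-Delta cells, as 2 did without FI-Delta time array 1.

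Of 23 bZIP and related factor genes, which include ATF4's partners, 11 rose and 3 fell in Y577F cells, and 7 rose and 1 fell in FI-Delta cells. Cebpb rose in Y577F cells (1.36 ± 0.094), as did Fos (2.57 ± 0.12) and Jun (1.13 ± 0.10). In FI-Delta cells the gene that fell was Cebpa (-0.86 ± 0.12), and Fos (0.99 ± 0.13) and Atf6 (0.96 ± 0.097) rose most. At 0 h limma called 0 of them, and 5 had an unadjusted p under 0.05, against 2453 of all 20243 features. Of 23 endoplasmic reticulum chaperone and unfolded protein genes, 5 fell and 2 rose in Y577F cells and 7 fell and 0 rose in FI-Delta cells, with Hyou1 (-0.86 ± 0.11) and Calr (-0.50 ± 0.11) among the latter. At 0 h 1 was lower in Y577F cells, Sdf2l1 (-0.39 ± 0.082), limma called 0 as higher, and 9 had an unadjusted p under 0.05. That call held without FI-Delta time array 1 or Y577F time array 2 and was lost without each of the others. Without FI-Delta time array 3 the chaperone genes that fell in FI-Delta cells were 3, and without either Y577F time array those that fell in Y577F cells were 2, or 3 without FI-Delta time array 3. The 2 rises in Y577F cells were 0 without Y577F time array 1 and 1 without any 1 of 0 h arrays 1 and 2, the 72 h arrays, Y577F time array 2 and FI-Delta time array 3. Without Y577F time array 2, 1 chaperone gene rose in FI-Delta cells. Without Y577F time array 1, 1 of the bZIP genes fell in Y577F cells, and without FI-Delta time array 3, 1 was called at 0 h.

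**Figure D5:**
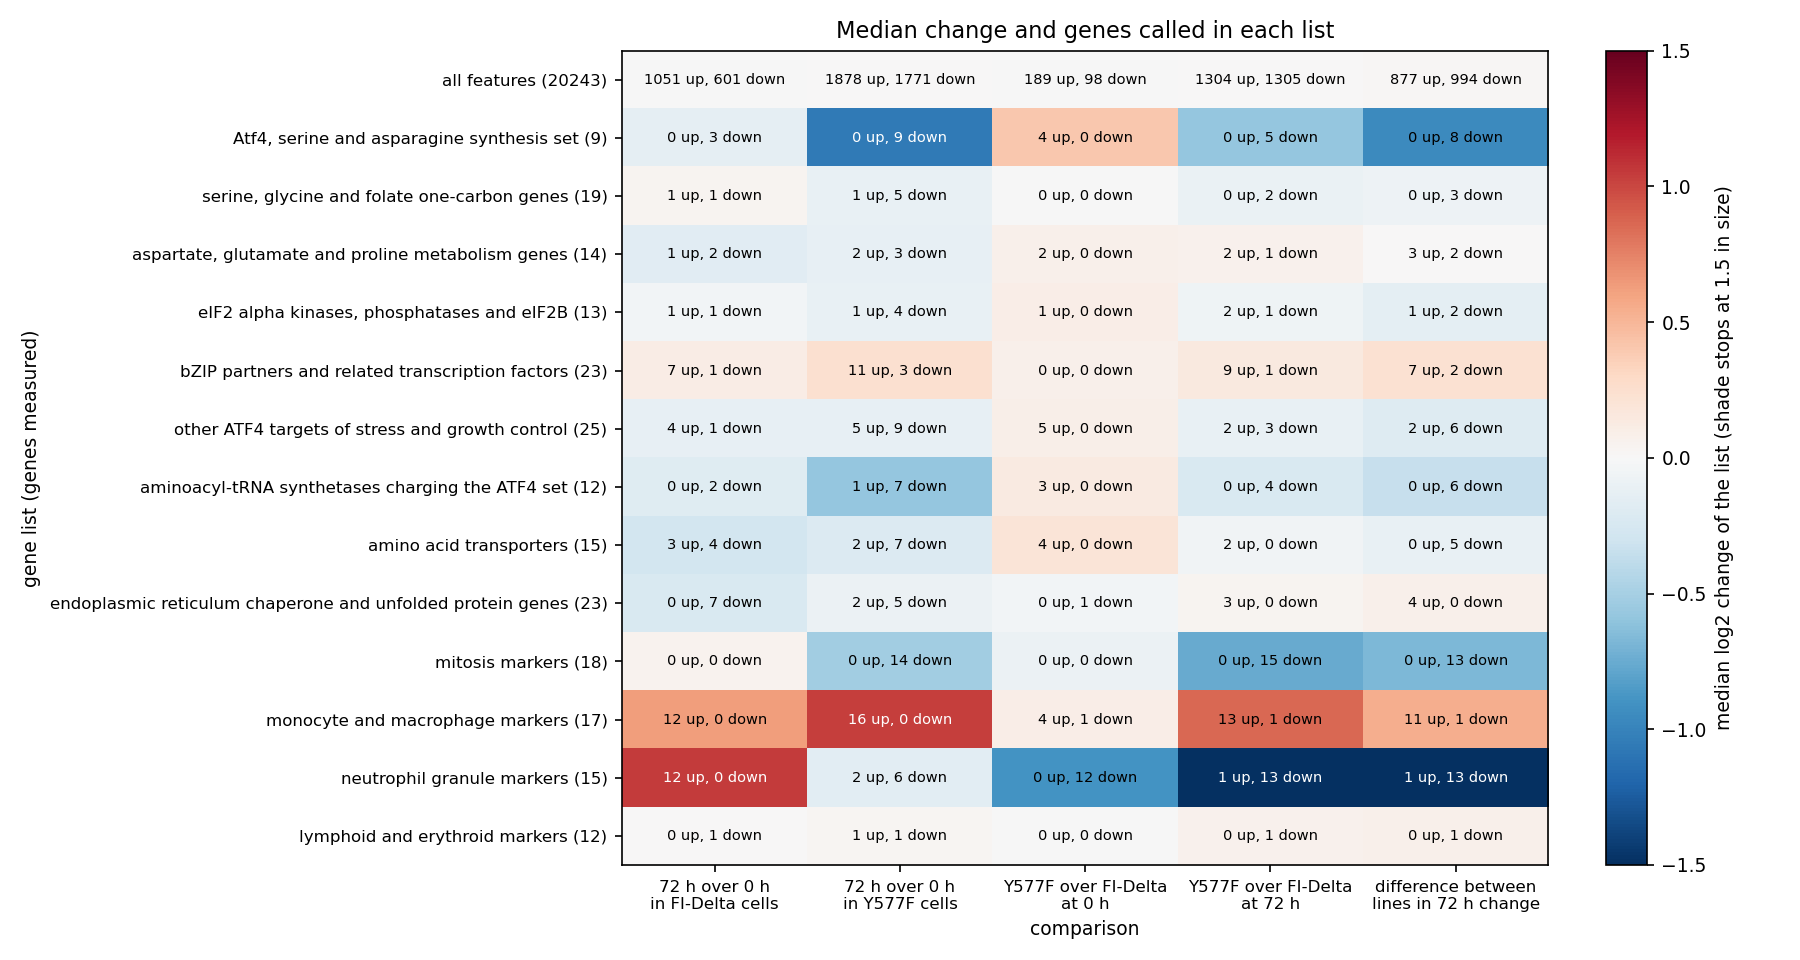
Median log2 change (colour, red higher and blue lower, shade stopping at 1.5 in size) of the 9 genes and of each context and marker list (rows, with genes measured) in the 5 comparisons (columns), with the number of genes called higher (up) and lower (down) in each cell. The 9 genes and the aminoacyl-tRNA synthetases have blue medians over time in Y577F cells (-1.06 and -0.57) and pale red ones at 0 h (0.40 and 0.14).

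Markers of cell division and of mature myeloid cells moved in the same comparisons, and their part in the results was not tested. Of 18 mitosis markers, 14 fell in Y577F cells over time, with array medians of -0.64 to -0.44, and 9 fell without Y577F time array 1. In FI-Delta cells limma called 0 of them, and array medians were 0.054 to 0.063. An unadjusted p under 0.05 was found there for 3 of the 18 and for 3999 of all 20243 features. At 0 h limma again called 0 of the mitosis markers between the lines, and array medians were -0.13 to -0.040. At that time 3 of them and 2453 of all features had an unadjusted p under 0.05. At 72 h 15 were lower in Y577F cells, with array medians of -0.86 to -0.56. Of 17 monocyte and macrophage markers, 16 rose in Y577F cells and 12 in FI-Delta cells, with array medians of 1.05 to 1.18 and 0.40 to 0.83, and 6 rose in FI-Delta cells without FI-Delta time array 3. At 0 h 4 of them were higher and 1 lower in Y577F cells (array medians of 0.12 to 0.24), none of them called without 0 h array 1, and the 1 lower was also lost without Y577F time array 2, 72 h array 1 and, singly, 0 h arrays 2 and 3. At 72 h 13 were higher and 1 lower (array medians of 0.69 to 0.91). Of 15 neutrophil granule markers, 2 rose and 6 fell over time in Y577F cells, with array medians of -0.36 to -0.077, while 12 rose in FI-Delta cells (array medians of 0.87 to 1.51). At 0 h 12 were lower in Y577F cells (array medians of -1.14 to -0.77). At 72 h 13 were lower and 1 higher in Y577F cells (array medians of -2.67 to -2.46), the 1 higher being lost when Y577F time array 2, one of the 72 h arrays or one of FI-Delta time arrays 1 and 3 was left out. With the extract replicate block 5 neutrophil markers were lower at 0 h and 3 fell over time in Y577F cells, 6 monocyte markers rose in FI-Delta cells, and the monocyte calls at 0 h were lost. Of 12 lymphoid and erythroid markers, at most 2 were called in any comparison, with Hba-a1 lower over time in both lines.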

How the data were processed

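Pairs of total RNA from 2 FDB1 lines at 0 h and 72 h were hybridised to 10 spotted arrays after indirect labelling with the dyes Cy5 and Cy3, per the labels' protocols. The deposited values are log ratios that the authors had normalised, taken here as log2 because the submitters' processing notes name limma, which writes log2. The sources used here do not give their base, direction, background correction or normalisation method. No spot intensities were used, so depth is unknown, and it is the number of arrays that limits precision. Array medians lay between -0.0162 and 0.00904.

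Of 23040 spots, 1243 control spots were left out, and averaging the probes of a gene gave 20243 features. Of 21797 probes, 16651 had 1 symbol, 137 several and 5009 none. The linear model (limma 3.58.1, lmFit and eBayes, under R 4.3.3) had 3 coefficients for the 4 RNA groups, a dye term, 5 residual and 6.34 prior degrees of freedom. Tests were two-sided with Benjamini-Hochberg adjustment over all features of a comparison. The scripts were tested on simulated data. The dye term was called in 146 features and in none of the 9 genes (adjusted p 0.297 to 0.761 in limma). The dye swap of the same RNA was averaged, which cancels the dye, so that pair did not measure this term. On its 2 arrays, FI-Delta time arrays 1 and 2, the 9 genes had medians of -0.073 and -0.40. A dye effect on the 9 genes is therefore not excluded. Arrays share RNA extracts, and the p-values treat them as independent.

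The 9 genes, the context and marker lists and the alternatives were chosen with earlier results of these data known. Genes named from a list were taken from its up to 3 called genes with the largest change in that comparison, and not all of these were named. Likeness was read for the 10 genes nearest the mean of the enzymes and the 5 nearest Atf4. Promoters are from RefSeq tables of GRCm38.p6.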

Additional observations from a re-analysis of the deposited data

Results flagged for a closer look

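The change over 72 h differed between the lines in the test of the difference itself for 8 of the 9 genes, which is what marked them for a closer look. Over all features, 9.24% were called in this test, 4.91% as lower and 4.33% as higher. As Y577F minus FI-Delta on the log2 scale, the differences were -1.54 for Psat1, -1.14 for Atf4, -1.06 for Asns, -0.98 for Psph, -0.95 for Shmt2, -0.68 for Trib3, -0.65 for Mthfd2 and -0.61 for Ddit3. Mitosis markers differed in the same test, with 13 of 18 lower and a median of -0.68, as did neutrophil granule markers, with 13 of 15 lower and a median of -1.56. The part of either in the 8 genes was not tested.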

How the results depend on the processing

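Each of the 5 comparisons was refitted under 20 alternatives. Of 900 values of single genes, 834 kept their direction and side of the threshold, 44 lost a call, 8 gained one and 14 changed sign, none of the 14 being called in the main analysis.

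The count of called features moved most. With a coefficient for each RNA extract (extract replicate block, without the dye term) it was 544 in FI-Delta cells over time, 1721 in Y577F cells over time, 22 at 0 h, 1060 at 72 h and 440 for the difference in change. With the direct arrays alone it was 912, 2224, 46, 1018 and 210 in that order, and with array weights 3786 in FI-Delta cells over time, 445 at 0 h and 5537 at 72 h. The culture replicate block gave 130 at 0 h. Leaving out 1 array at a time gave 887 to 1953 in FI-Delta cells over time, 1949 to 3627 in Y577F cells over time, 57 to 299 at 0 h, 1403 to 2629 at 72 h and 911 to 1861 for the difference.

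Of the 9 genes, the extract replicate block called 0 at 0 h in limma, where 6 had an unadjusted p under 0.05. Of the 9 genes, the direct arrays alone called 1 at 0 h and 2 for the difference, array weights called 8 at 72 h, and leaving out 1 array gave 1 to 5 at 0 h. Over time in Y577F cells the extract replicate block called 7 and the culture replicate block 8. At 0 h the culture replicate block called Psat1 (adjusted p = 0.0427) and lost Ddit3 and Mthfd2. Cultures were numbered 1 and 2 for FI-Delta and 3 and 4 for Y577F from the labels, which give some numbers to the opposite line. Whether same-numbered extracts deviate together was not tested.

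In FI-Delta cells over time Atf4 was 0.034 with array weights, 0.00563 with arrays scaled to one median absolute deviation and -0.12 to 0.065 with 1 array left out, Mthfd2 was 0.033 with the direct arrays alone and -0.089 to 0.0070 with 1 array left out, and Psph -0.17 to 0.028. Phgdh at 0 h ranged from -0.22 to 0.077, and Ddit3 at 72 h from -0.081 to 0.12, with 0.00671 after that scaling. The cause was not tested. Each gene has 1 probe, so fitting probes singly changed only the variance prior and the adjustment. Dim spots could not be filtered without intensities.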
